A study of Mus musculus with 15 samples.

Results

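The genes described here are Arc, Egr1, Egr2, Egr3, Egr4, Npas4, Nr4a1, Nr4a2, Nr4a3 and Homer1, 10 genes that neurons switch on within minutes to hours of electrical activity. Their members in the data are the CpG positions, on either strand, that lie inside one of these genes or within 5 kb of it in the RefSeq annotation of mouse build GRCm38. There were 422 such strand-specific CpG positions, called CpG rows here, of 455836 in all. Rows with a value in only some of the mice were kept, and 74 of the 422 had a value in all 15 mice. The assay was reduced representation bisulfite sequencing (RRBS), which reads short CpG-rich fragments after unmethylated cytosines have been converted, in micro-dissected dentate gyrus of the hippocampus. The 15 female C57BL/6JRj mice were 7.5 months old, with 5 mice in each of 3 housing groups. The standard group had lived in ordinary cages for 6 months and the enriched group in an enriched environment for 6 months. The withdrawal group had spent 3 months in enrichment and then 3 months in ordinary cages. The labels name no genotype or drug. They also do not say whether a library holds DNA of 1 animal or of a pool; each is called a mouse here, and p-values measure the spread between these libraries. Whole dentate gyrus was used, so a change of methylation within a cell type and a change in the mix of cell types cannot be told apart.

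Neuronal activity raises calcium in the cell, and calcium-dependent kinases then act on factors already bound at these genes, such as CREB and SRF, so that transcription starts without new protein synthesis. Most of the genes encode transcription factors that start a second wave of expression, while Arc and Homer1 encode proteins that act at the synapse itself. In the dentate gyrus their induction in a sparse set of granule cells is widely used to mark cells that took part in a recent experience. Methylation of CpG-dense promoters generally goes with silenced transcription, and promoters that must respond quickly are usually free of it.

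As background for all that follows, the table gives percentages without read counts, so the depth behind each value is unknown. A partial view of it is the share of rows without a value, which over all CpG rows ran from 2.57% in withdrawal mouse 4 to 34.7% in standard mouse 1. For the 10 genes the share ran from 0% in withdrawal mouse 4 to 54.3% in standard mouse 1, with 33.6% in enriched mouse 1, 32.0% in enriched mouse 5 and 6.16 to 14.9% in the other 11 mice. Standard mouse 1 had the lowest level of all mice with a value at 5 genes (Egr2, Egr3, Nr4a1, Nr4a2 and Homer1). Enriched mouse 1 had the highest level at Egr3, Npas4 and Nr4a3, and enriched mouse 5 had the highest at Arc, Nr4a1 and Homer1. Of the 30 differences between groups over the 10 genes, those that moved by over 1.5 times or changed sign without these 3 mice are given with the value without them. For these values the gene levels of the remaining mice were kept as estimated with all 15 mice.

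The 10 genes were sparsely methylated where RRBS read them. Of the 422 rows, 380 (90%) had a mean under 20% over the mice, 25 (5.92%) lay between 20 and 80%, and 17 (4.03%) were above 80%. Over all CpG rows outside the Y chromosome and mitochondrial genome, the shares were 52.4%, 17.2% and 30.4%. At 133 of the 422 rows every mouse with a value read 0%. The rows were not spread evenly: Egr2 held 85, Nr4a2 79, Egr3 76, Nr4a3 55 and Nr4a1 45, while Homer1 held 24, Npas4 22, Arc 19, Egr4 12 and Egr1 only 5. Rows no more than 200 bases apart fell into 57 stretches, and of the 40 stretches with at least 3 rows 33 averaged under 20%, 4 lay between 20 and 80% and 3 were above 80%.

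Rows near transcript starts were almost all low. For the 7 genes with a listed RefSeq start, 97 of 98 rows within 500 bases of one were under 20% (99.0%), against 95.6% of rows as near to any protein-coding gene's start. All 48 rows between 500 and 1000 bases away were under 20%, against 90% in the same band over all such genes. Between 1000 and 2000 bases, 28 of 29 rows (96.6%) were under 20%, against 73.4%. From 2000 to 5000 bases the share was 10 of 21 rows (47.6%) against 52.5%, and 10 of the other 11 rows belonged to Nr4a1. Low methylation was also common further from a listed start: of 123 rows from 5000 to 50000 bases away, 99 (80.5%) were under 20%, against 34.7%. Of these 68 belonged to Nr4a2 and 30 to Nr4a1. The 1 listed start of Nr4a1 lies inside the gene, and 26 of those 30 rows lie within 1 kb of the gene's 5′ end. Those 26 are thus far from the listed start but not from the end of the gene. Rows of 1 gene share fragments and are not independent, so these shares are a description without a test. In the plot along the genes, low points surround the marked starts, and 12 of the 17 rows above 80% lie inside Nr4a1.

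**Figure D1:**
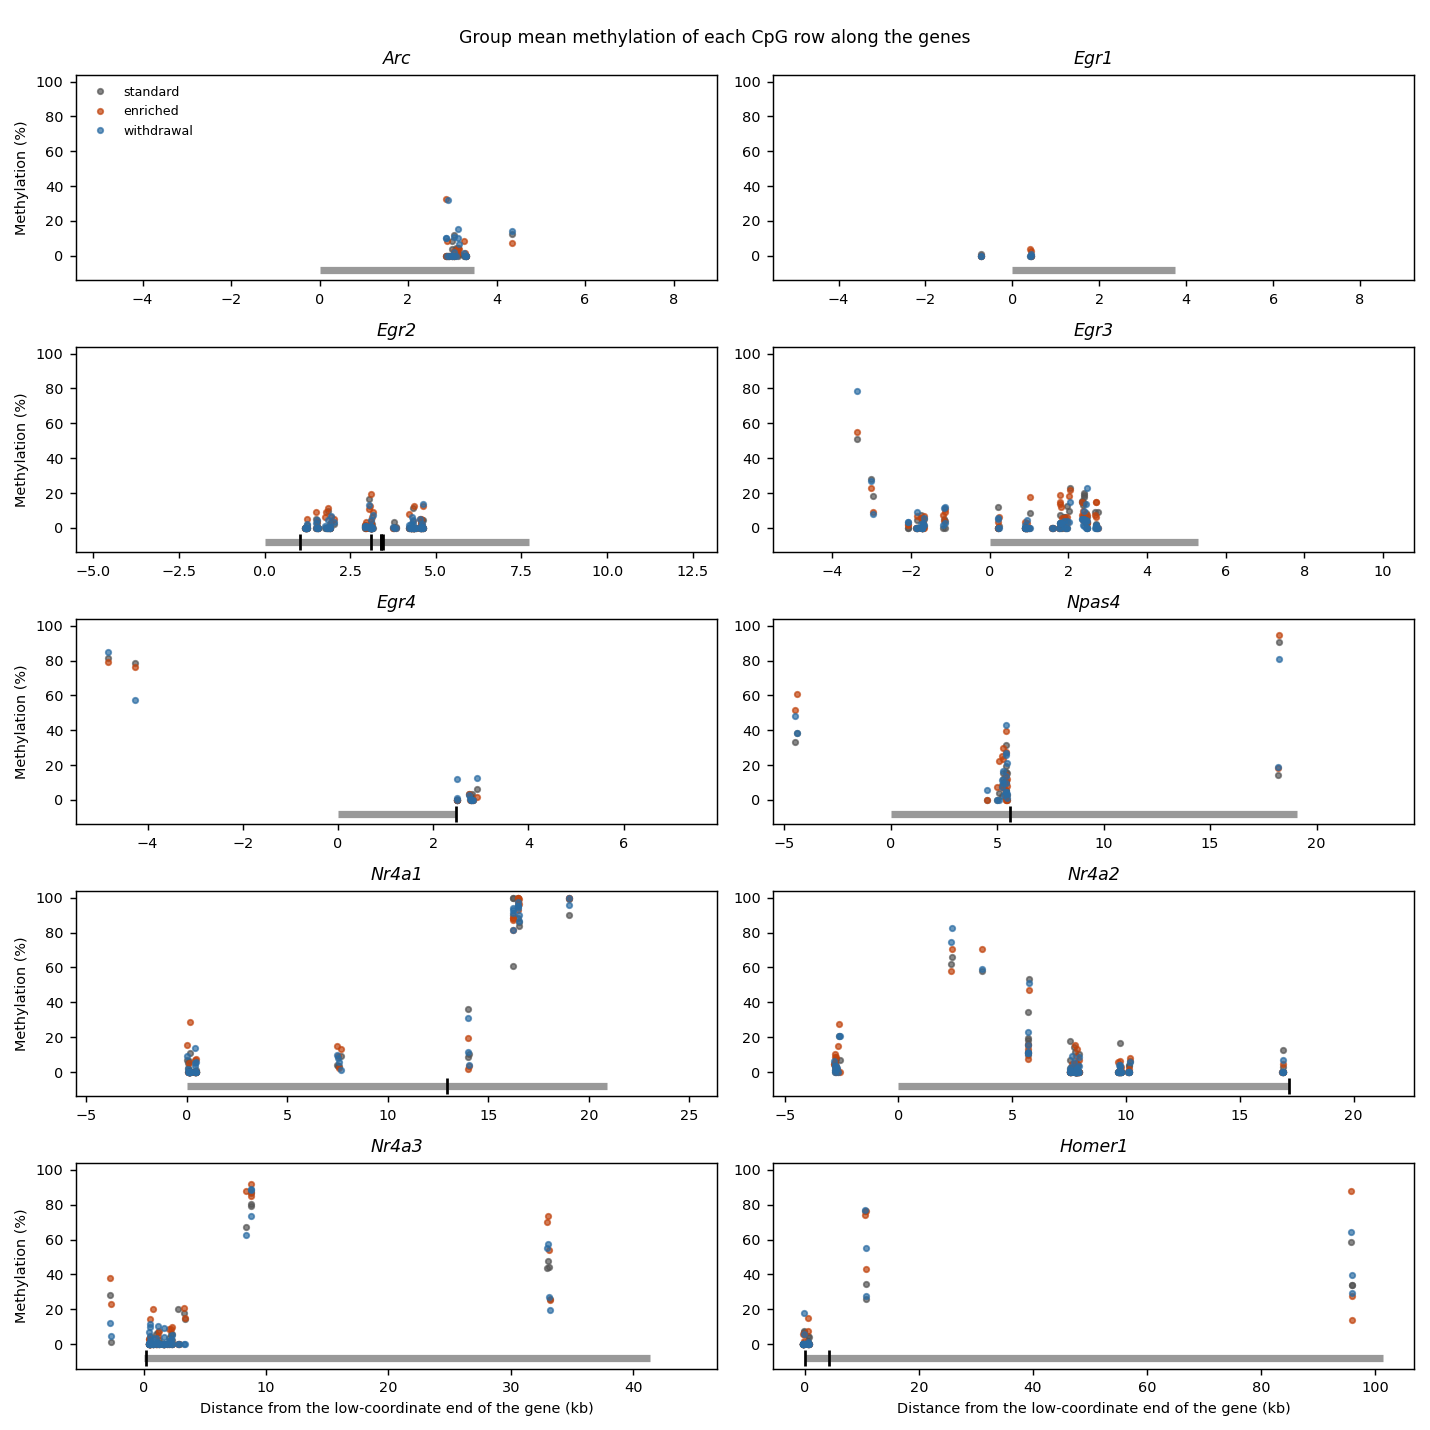
Mean methylation of each CpG row in percent, for the standard (grey), enriched (orange) and withdrawal (blue) mice, against the distance in kb from the low-coordinate end of each gene. The grey bar is the gene and black ticks are the listed transcript starts of 7 genes. Most rows near the starts lie under 20%, with some higher at Npas4, and rows at the far end of Nr4a1 lie above 60% in all 3 groups.

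A few starts carried measured rows in the 250 bases just before them, and those bases are printed because the methylation values sit on them. RefSeq promoter sequences (build GRCm38.p6) were matched for 7 of the 10 genes, and Arc, Egr1 and Egr3 were not matched. Letters are in the 5′ to 3′ direction on the strand of the gene, and capitals mark each CpG with at least 1 measured row.
Egr2 (chr10:67537316-67537565, plus strand): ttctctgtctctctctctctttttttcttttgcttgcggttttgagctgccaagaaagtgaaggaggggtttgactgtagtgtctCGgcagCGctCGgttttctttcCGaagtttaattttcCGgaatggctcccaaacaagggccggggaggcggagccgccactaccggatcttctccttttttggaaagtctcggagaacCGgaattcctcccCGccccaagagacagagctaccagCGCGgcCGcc
Homer1 (chr13:93303507-93303756, plus strand): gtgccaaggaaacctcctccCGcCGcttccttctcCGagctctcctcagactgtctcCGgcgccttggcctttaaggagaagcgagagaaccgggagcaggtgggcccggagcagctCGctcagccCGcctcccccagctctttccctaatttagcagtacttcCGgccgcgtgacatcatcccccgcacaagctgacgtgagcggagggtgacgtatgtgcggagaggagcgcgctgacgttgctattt
Egr4 (chr6:85513590-85513839, minus strand): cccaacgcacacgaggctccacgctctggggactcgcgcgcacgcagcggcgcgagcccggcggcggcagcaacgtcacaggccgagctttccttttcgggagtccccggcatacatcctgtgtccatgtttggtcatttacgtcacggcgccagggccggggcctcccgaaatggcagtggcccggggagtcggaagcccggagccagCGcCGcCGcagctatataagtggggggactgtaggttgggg

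Of the 16 CpGs in the Egr2 stretch 10 were measured, of the 21 in the Homer1 stretch 7, and of the 28 in the Egr4 stretch 3. Row means over all mice ran from 0 to 13.6% at Egr2, from 0 to 11.4% at Homer1 and from 0 to 5.59% at Egr4, so no measured CpG of the 3 printed stretches was more than sparsely methylated by its mean. The windows were CpG-rich. Over the 300 bases from 250 before to 50 after a start, the 12 listed starts of the 7 genes held 7 to 52 CpGs, and 11 of the 12 were above the median of 13 over 21262 windows of protein-coding genes. Nr4a2 had the most, 52, and the second Homer1 start the fewest, 7.

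Motifs were searched on both strands of these windows. TGACGT, part of the CREB site TGACGTCA, was found in 7 of the 12 windows and at 5 of the 7 genes (Egr2, Egr4, Homer1, Npas4 and Nr4a3), against 8.49% of all 21262 windows. The Egr2 windows among the 7 overlap one another, so the 7 are not separate. The full TGACGTCA was in none of the 12, against 2.23% of all windows. A CArG box, the SRF site, was found in 4 of the 5 Egr2 windows, some of which overlap, and at no other gene, against 1.52% of all windows. GCGGGGGCG, a site of the EGR proteins, was in the Nr4a1 window, against 3.87%, and AAAGGTCA, a site of the NR4A proteins, was in none of the 12, against 1.30%. In the printed Homer1 bases TGACGT ends 51, 35 and 9 bases before the start, and its nearest measured CpG is 29 bases away. In the printed Egr2 bases the CArG box ends 63 bases before the start that follows them, 16 bases from the nearest measured CpG. No measured CpG lay inside a match in the printed bases. The TGACGT matches hold a CpG, whose methylation was thus not measured, and the CArG box in the printed Egr2 bases holds no CpG. A match is a run of letters and does not show that a factor binds.

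The first comparison sets 6 months of enrichment against standard housing. No gene and no CpG row passed the test between enriched and standard mice. The level of a gene is the mean percentage over its rows after a least-squares correction for which rows a mouse lacked. By that level 8 of the 10 genes were higher in the enriched mice by group mean, with a median difference of 1.39 percentage points, and Egr4 and Nr4a2 were lower. Over all 16132 protein-coding genes tested, 52.1% were higher and the median difference was 0.0910 points. The differences ran from -1.68 points at Egr4 to 8.33 points at Npas4.

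The test was limma on the log ratio, log2((percent + 5)/(105 - percent)), and log2 ratios below are differences on that scale. In it 0 of the 10 genes had an adjusted p under 0.05, as did 0 of all 16132 genes (0%). At an unadjusted p under 0.05 there were 2 of the 10, Egr2 and Npas4, both higher in the enriched mice, against 5.81% of all genes. The enriched and standard mice did not overlap at 1 gene, Egr2, against 0.762% of all genes, and at 1 of the 268 rows tested, against 1.22% of all rows. Of the 422 rows 268 spanned at least 5 points, had values in 3 or more mice of each group and were tested, and 0 were called, as were 0 of all 350663 (0%). On simulated data this row test missed most of the changes put in, so a row without a call is not shown to be alike between groups. Gene changes under 10 points were not simulated, so a gene without a call is not shown to be alike either. At an unadjusted p under 0.05 there were 6 of 268 rows, against 4.67% of all rows: 5 were higher, against 2.41%, and 1 was lower, against 2.26%. The count of 8 higher genes fell to 6 of 10, with a median of 0.398 points, without the 3 mice that lacked the most rows. The smallest limma adjusted p among the 10 genes was then 0.900. The count fell to 5 of 10, with a median of 0.355 points, when levels were plain means of the rows present. With only rows that had a value in all mice, 6 genes kept a level, and 3 were higher and 3 lower, with a median of 1.31 points.

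**Figure D2:**
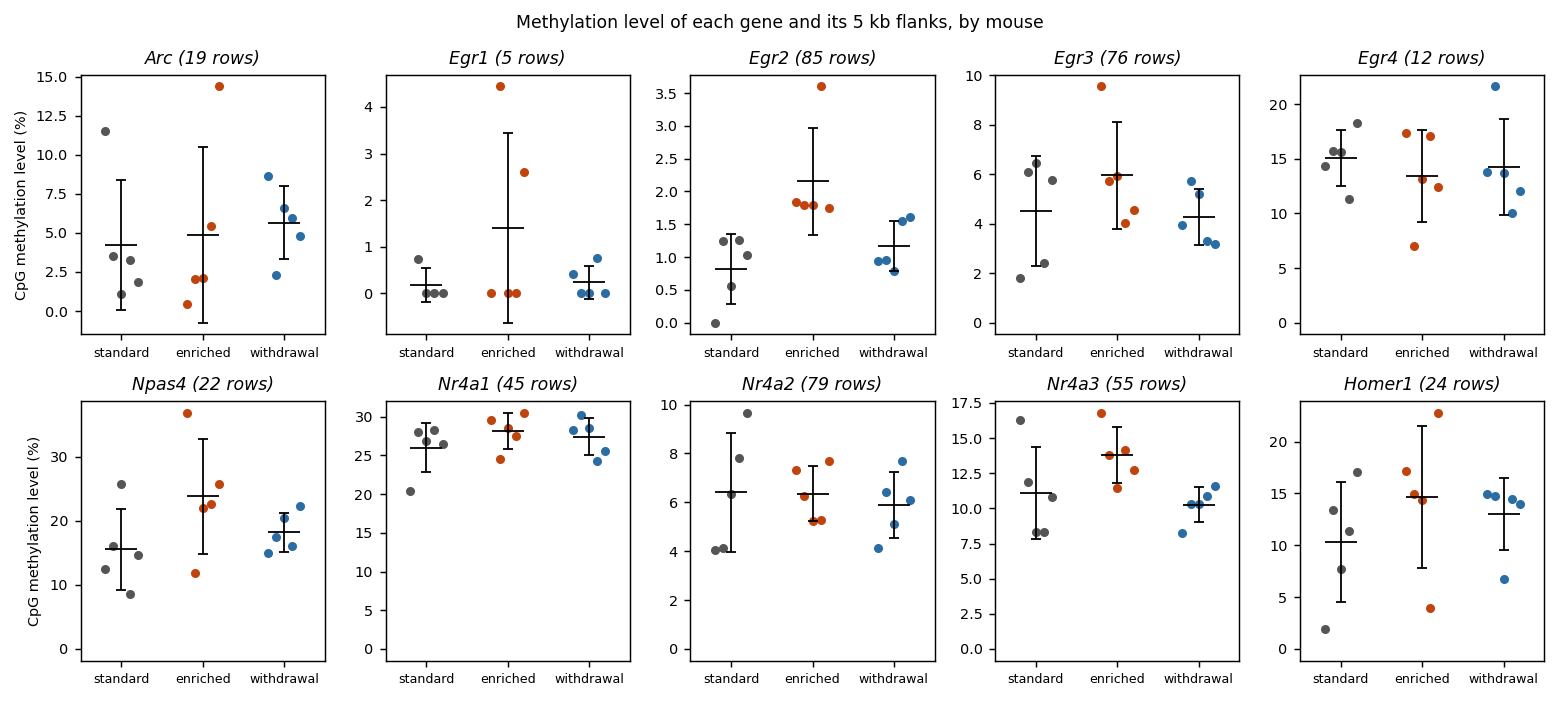
Methylation level in percent of each gene with its 5 kb flanks, 1 point per mouse, for the standard, enriched and withdrawal groups; the bar and whiskers are the mean and SD. The vertical scale differs between panels. The groups overlap in every comparison except at Egr2, where the 5 enriched mice lie above the other 10.

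The second comparison asks whether methylation differed 3 months after enrichment ended from that of mice never enriched. No gene and no row passed the test. By group mean 6 genes were higher and 4 lower in the withdrawal mice, with a median difference of 0.201 points, against 55.5% higher and a median of 0.245 points over all genes. The differences ran from -0.854 points at Nr4a3 to 2.71 points at Npas4. By limma 0 of the 10 genes passed an adjusted p of 0.05, as did 0 of all genes (0%), and 0 had an unadjusted p under 0.05, against 4.41% of all genes. No gene had groups that did not overlap, against 0.886% of all genes, and no row, against 1.11% of all rows. When the 3 mice that lacked the most rows were left out, 6 genes were higher and 4 lower, with a median of 0.0984 points. Arc then differed by 3.24 points (limma adjusted p = 0.914). With plain means of the rows present, 3 were higher and 7 lower, with a median of -0.300 points. With only rows complete in all mice, 6 genes kept a level, and 2 were higher and 4 lower, with a median of -0.435 points. Among the 268 rows 0 were called, against 0% of all rows, and 5 had an unadjusted p under 0.05 against 4.3% of all rows: 4 were higher, against 2.35%, and 1 was lower, against 1.95%. For any difference among the 3 groups, 0 rows were called, against 0% of all rows, and 8 had an unadjusted p under 0.05, against 4.27%.

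The third comparison sets withdrawal against continued enrichment, and again no gene and no row passed the test. Here 8 of the 10 genes were lower in the withdrawal mice by group mean and 2, Arc and Egr4, were higher, with a median difference of -1.08 points. Over all genes 53.6% were higher and the median was 0.137 points. The differences ran from -5.61 points at Npas4 to 0.833 points at Egr4. By limma 0 of the 10 passed an adjusted p of 0.05, as did 0 of all genes (0%). At an unadjusted p under 0.05 there was 1 gene, Nr4a3, lower in withdrawal, against 4.09% of all genes, and the groups did not overlap at 1 gene, Egr2, against 0.973%. Among the 268 rows 0 were called, against 0% of all rows, and 10 had an unadjusted p under 0.05 against 4.18%: 5 were higher, against 2.24%, and 5 lower, against 1.94%. The groups did not overlap at 4 of the 268 rows, against 1.11% of all rows. This comparison and the first share the 5 enriched mice, and all 3 share groups in pairs, so their directions are not separate evidence. Without the 3 mice that lacked the most rows, 5 genes were higher and 5 lower, with a median of -0.169 points, and Npas4 differed by -0.626 points. The smallest limma adjusted p among the 10 genes was then 0.902. With plain means of the rows present, 3 were higher and 7 lower, with a median of -1.16 points. With only rows complete in all mice, 6 genes kept a level, and 1 was higher and 5 lower, with a median of -0.925 points.

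**Figure D3:**
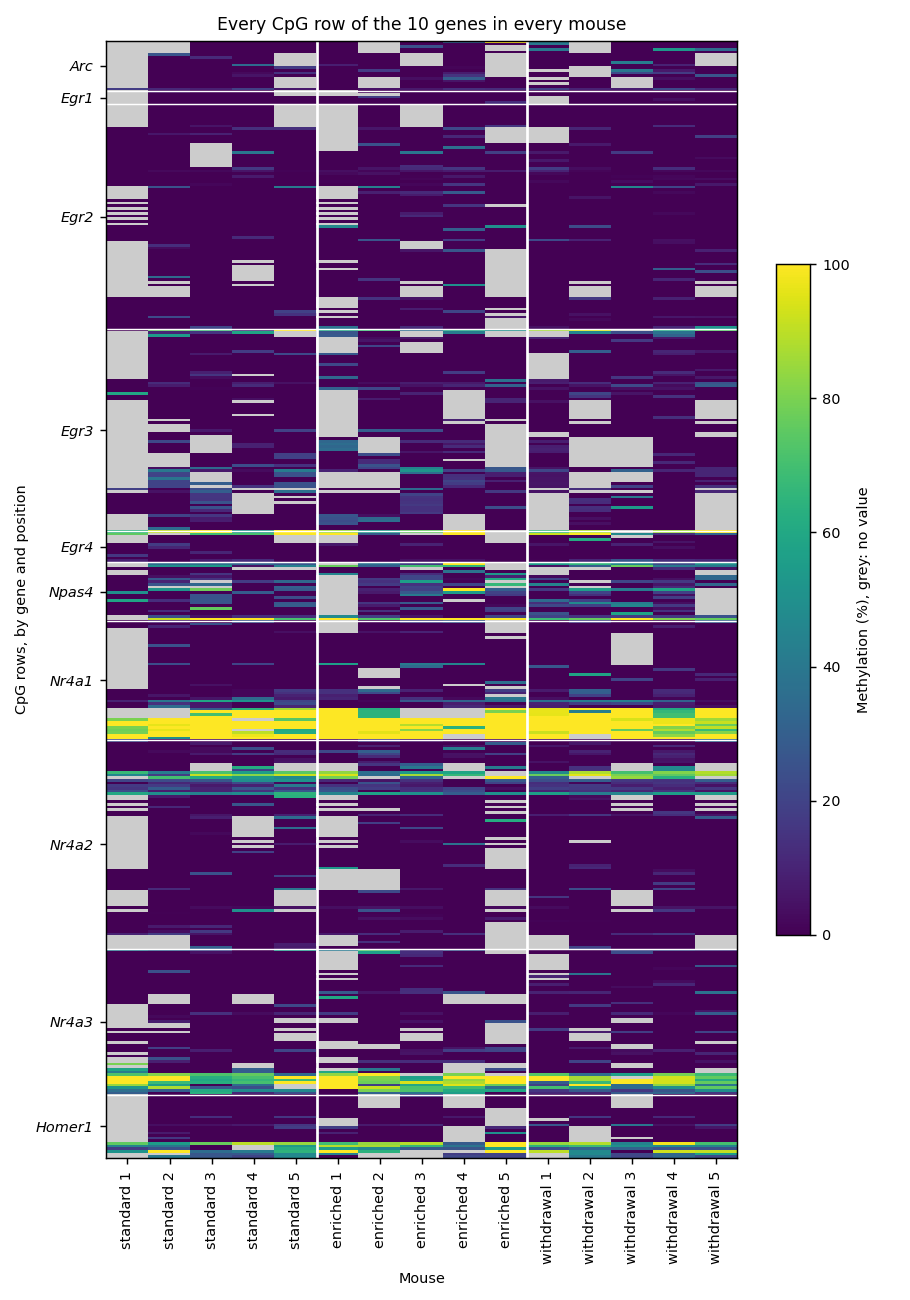
Methylation in percent (colour scale) of all 422 CpG rows, ordered by gene and position, in each of the 15 mice, with grey where a mouse has no value. Most rows are dark in every mouse, the bright bands include the distal rows of Nr4a1, Nr4a3 and Homer1, and the grey area is largest in standard mouse 1, enriched mouse 1 and enriched mouse 5.

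Among the transcription factors, the EGR family are zinc finger proteins that bind GC-rich sites and relay activity to later genes. Egr2 (chr10:67534469-67542188) had 85 rows, all inside the gene and all under 20%, and 40 of them read 0% in every mouse. Its level was 0, 1.25, 0.556, 1.26 and 1.04% in standard mice, 1.83, 1.79, 1.8, 3.60 and 1.75% in enriched mice and 0.935, 0.952, 0.791, 1.55 and 1.61% in withdrawal mice. Every enriched mouse was above every other mouse, by little in 4 of them, and enriched mouse 4 stood apart. The group means were 0.820% ± 0.539, 2.15% ± 0.811 and 1.17% ± 0.381 (SD, n = 5). Enriched exceeded standard by 1.33 points (log2 ratio 0.31, SE 0.11, limma adjusted p = 0.856). Withdrawal was -0.987 points from enriched (log2 ratio -0.22, SE 0.11, limma adjusted p = 1). Neither difference passed the test after adjustment. Withdrawal minus standard was 0.348 points, and 0.143 without the 3 mice that lacked the most rows. Without the 3 mice that lacked the most rows, enriched still exceeded standard, by 1.37 points (limma adjusted p = 0.931).

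The same order of group means was seen in the stretch of 26 rows at chr10:67537402-67537635, which overlaps the printed bases and was chosen after its values were seen. These rows are part of the Egr2 level, so their order is not separate evidence, and not every Egr2 stretch had it. The level of the 26 rows was 0.214, 0.979, 0.0625, 0.750 and 1.57% in standard mice, 3.35, 3.22, 1.63, 4.45 and 1.98% in enriched mice and 1.04, 1.48, 1.93, 1.28 and 0.380% in withdrawal mice. The lowest enriched mouse was just above the highest standard mouse and below the highest withdrawal mouse. The Egr2 row with the smallest p was at chr10:67537556 on the plus strand, near the 3′ end of the printed bases. It lies 10 bases before the start that follows those bases, which is 1 of 5 listed starts of Egr2 and lies inside the gene. It read 8.82, 12, 28.6 and 0% in the 4 enriched mice with a value, 0% in the 4 standard mice with a value and 0, 0, 0, 2.27 and 0% in withdrawal mice. Thus 3 of 4 enriched mice had some methylation there, against 1 of 9 others. The enriched mean of 12.3% ± 11.9 (SD, n = 4) exceeded standard by 12.3 points (log2 ratio 1.68, SE 0.56, limma adjusted p = 0.892). The row with the highest mean in the printed bases, chr10:67537519, averaged 16.5%, 11% and 13.4% in the standard, enriched and withdrawal mice, and so was not higher in the enriched group.

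Egr3 (chr14:70077317-70082613), a relative of Egr1 that activity also induces, had 76 rows, of which 74 were under 20% and 19 were at 0% throughout. Its level was 1.79, 6.09, 6.46, 2.42 and 5.75% in standard mice, 9.54, 5.71, 5.93, 4.01 and 4.56% in enriched mice and 3.93, 5.72, 5.20, 3.32 and 3.19% in withdrawal mice, so all 3 groups overlapped. The means were 4.5% ± 2.22, 5.95% ± 2.16 and 4.27% ± 1.14 (SD, n = 5), and none of the 3 differences passed the test (smallest limma adjusted p = 0.913). Enriched mouse 1, highest at 9.54%, lacked 33.6% of the rows of the 10 genes; without it and the other mice with the most missing rows the enriched minus standard difference was 0.0385 points instead of 1.45. In the same way withdrawal minus standard was -0.909 instead of -0.230, and withdrawal minus enriched -0.947 instead of -1.68. Within the gene, the 15 rows at chr14:70078892-70079362, a stretch chosen after its values were seen, averaged 4.89% ± 1.45 (n = 4), 10.1% ± 5.12 (n = 5) and 2.52% ± 2.28 (n = 5). The next stretch of 16 rows, at chr14:70079664-70079794, had its highest mean in the standard group, 8.75% ± 7.20, against 5.43% ± 3.96 and 5.56% ± 5.4. The row of smallest p, chr14:70078329 on the minus strand, read 6.67, 0 and 19.6% in 3 standard mice, 30, 24 and 0% in 3 enriched mice and 0% in all 5 withdrawal mice (log2 ratio -2.07, SE 0.78, limma adjusted p = 0.922 for withdrawal against enriched).

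Egr4 (chr6:85511121-85513589, minus strand) had 12 rows, none inside the gene, 10 of them within 1 kb before its start. Those 10 had a level of 3.61, 2.76, 1.87, 1.28 and 0.00421% in standard mice, 0.897, 0, 1.39, 0.490 and 0.00421% in enriched mice and 0.655, 7.24, 3.85, 2.15 and 1.13% in withdrawal mice. The enriched mice were low, all at or under 1.39%, and the withdrawal mice reached 7.24%, with overlap. Withdrawal exceeded enriched by 2.45 points (log2 ratio 0.51, SE 0.23, limma adjusted p = 0.960). This was the 1 start with an unadjusted p under 0.05 among the 5 members tested at their starts, against 4.59% of all 8209 starts. The 5 were Egr4, Nr4a1, Nr4a2, Nr4a3 and Homer1, and 0 were called among them and among all starts (0%) in any comparison. In each comparison with the standard group, 0 of the 5 starts had an unadjusted p under 0.05, against 4.86% of all starts. Egr2 and Npas4 had too few rows within 1 kb of the gene's 5′ end to be tested there. With rows within 1 kb of any listed start, enriched exceeded standard at Egr2 by 1.34 points over 72 rows (limma unadjusted p = 0.0373, adjusted p = 0.916). At Npas4 the difference was then 7.15 points over 17 rows (limma unadjusted p = 0.0940, adjusted p = 0.916). The Egr4 row of smallest p, chr6:85514034 on the minus strand, 445 bases before the start, read 8.93, 0, 8.47, 12.8 and 0% in standard mice, 0, 0, 4.41, 4.90 and 0% in enriched mice and 0.741, 10.8, 27.0, 12.5 and 11.3% in withdrawal mice (log2 ratio 1.39, SE 0.60, limma adjusted p = 0.922 for withdrawal against enriched). In 4 of 5 withdrawal mice the value was above that of every enriched mouse. The other 2 rows, in the downstream flank, averaged 81.8% and 69.2% and enter the level of the whole gene, 15.1% ± 2.53, 13.4% ± 4.22 and 14.2% ± 4.40 (SD, n = 5). With the 3 mice that lacked the most rows left out, the difference of that level was -2.85 points instead of -1.68 for enriched minus standard, and 1.83 instead of 0.833 for withdrawal minus enriched.

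Egr1 (chr18:34861207-34864956), the family member most used to mark active neurons, had the least data, 5 rows all under 20%, and none of them in standard mouse 1. Its level was 0 to 0.741% in 4 standard mice, 0 to 4.44% in 5 enriched mice and 0 to 0.769% in 5 withdrawal mice. Levels above 1% occurred in enriched mice 2 and 5, at 4.44 and 2.61%, and 3 of the 5 enriched mice read 0%. The difference of 1.22 points between enriched and standard did not pass the test (log2 ratio 0.27, SE 0.19, limma adjusted p = 0.899). At the row chr18:34861618, its smallest p, 1 enriched mouse read 18.2% and the other 12 mice with a value read 0%.

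Npas4 (chr19:4984353-5003439, minus strand) encodes a transcription factor of the bHLH-PAS class that neurons make in response to calcium entry and that adjusts inhibitory input. Its level over 22 rows was 12.6, 16.1, 25.7, 8.52 and 14.8% in standard mice, 36.9, 11.9, 22.1, 22.7 and 25.8% in enriched mice and 15, 17.5, 20.4, 16.0 and 22.3% in withdrawal mice. Enriched mouse 1 was highest, enriched mouse 2 was below 4 of the 5 standard mice, and the groups overlapped. The means were 15.5% ± 6.38, 23.9% ± 8.98 and 18.3% ± 3.05 (SD, n = 5), and enriched exceeded standard by 8.33 points (log2 ratio 0.63, SE 0.29, limma adjusted p = 0.856). Without the 3 mice that lacked the most rows, 2 of them enriched, the difference was 2.60 points and the unadjusted p was no longer under 0.05 (limma adjusted p = 0.962). Withdrawal minus enriched was -5.61 points with all mice and -0.626 points without those 3.

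Just inside the Npas4 start lay 17 rows at chr19:4989371-4989824, with row means from 3.12 to 37.5%, and they averaged 11.9% over all mice. The stretch averaged 10% ± 7.24, 17.2% ± 8.64 and 13.0% ± 3.73 (SD, n = 5) in the standard, enriched and withdrawal mice. At the row chr19:4989785 on the minus strand, 186 bases after the start, the withdrawal mice with a value read 21.6, 19.2, 45.5 and 16.7%, the enriched mice 7.69, 0, 0 and 2.22% and the standard mice 0, 0, 0, 0 and 29.4%. All 4 withdrawal values were above all 4 enriched values, and 1 standard mouse reached the withdrawal range. Withdrawal exceeded enriched by 23.3 points (log2 ratio 2.45, SE 0.80, limma adjusted p = 0.922) and standard by 19.9 points (log2 ratio 2.31, SE 0.76, limma adjusted p = 0.911). At chr19:4989824, 147 bases after the start, 2 of 4 withdrawal mice read 25.6 and 58.3%, and the other 11 mice with a value read 0% (withdrawal minus standard log2 ratio 1.96, SE 0.77, limma adjusted p = 0.911).

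The NR4A genes encode orphan nuclear receptors, transcription factors that act without a known ligand and that take part in memory consolidation. Nr4a3 (chr4:48045078-48086447, plus strand) had 55 rows, 46 under 20%. Its level was 16.3, 11.8, 8.33, 8.33 and 10.8% in standard mice, 16.8, 13.8, 11.4, 14.2 and 12.8% in enriched mice and 8.23, 10.3, 10.3, 10.9 and 11.6% in withdrawal mice. The enriched and withdrawal mice overlapped in 1 value each, enriched mouse 3 and withdrawal mouse 5, and standard mouse 1 was near the top of all mice. The means were 11.1% ± 3.27, 13.8% ± 1.99 and 10.3% ± 1.26 (SD, n = 5). Withdrawal was -3.53 points from enriched (log2 ratio -0.35, SE 0.15, limma adjusted p = 1), and enriched exceeded standard by 2.67 points (log2 ratio 0.28, SE 0.15, limma adjusted p = 0.871). Both differences kept their sign without the 3 mice that lacked the most rows, at -2.87 and 3.30 points, while withdrawal minus standard went from -0.854 to 0.433.

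Near the Nr4a3 start, the 19 rows at chr4:48045507-48045859 averaged 0.312% ± 0.698, 2.5% ± 3.19 and 2.02% ± 1.14. The row chr4:48045628 on the minus strand, 323 bases after the start, read 0% in all 5 standard mice, 28, 5.66, 13.4, 26.3 and 0% in enriched mice and 9.41, 10.3, 0, 0 and 37.7% in withdrawal mice. It was named as the Nr4a3 row of smallest p (log2 ratio 1.90, SE 0.73, limma adjusted p = 0.892 for enriched against standard). Withdrawal exceeded standard there by 11.5 points (limma adjusted p = 0.911). Far inside the gene, 4 rows at chr4:48078071-48078268, a stretch chosen after its values were seen, were partly methylated, at 42.0% ± 8.58, 55.8% ± 10.5 and 39.9% ± 10.1. A stretch of 3 rows at chr4:48053817-48053886 averaged 84.5% over all mice.

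Nr4a1 (chr15:101253902-101274795, plus strand), also known as Nur77, ran from nearly unmethylated to nearly full along its length. Its 26 rows within 1 kb of the gene's 5′ end had a level of 1.14% ± 1.07, 2.43% ± 1.49 and 1.56% ± 0.855 (SD, n = 5). A stretch at chr15:101261396-101261562 averaged 7.10% over all mice, and one at chr15:101267886-101267929, downstream of the listed start, 14.0%. Further in, the stretches at chr15:101270123-101270151, chr15:101270366-101270429 and chr15:101272908-101272920 averaged 88.3%, 94.5% and 97.3%. The last 3 stretches were above 80% and the first ones under 20% in each of the 3 groups. The level of the whole gene was 26.0% ± 3.21, 28.2% ± 2.29 and 27.4% ± 2.39 (SD, n = 5), and no comparison passed the test (smallest limma adjusted p = 0.917). The enriched minus standard difference of 2.15 points changed sign, to -0.512, without the 3 mice that lacked the most rows. Withdrawal minus standard then went from 1.37 to -0.0227 and withdrawal minus enriched from -0.775 to 0.489. The row chr15:101254066 on the minus strand read 23.5, 0, 20.7 and 0% in 4 standard mice, 56.5, 0, 41.2, 45.5 and 0% in enriched mice and 0% in 4 withdrawal mice (log2 ratio -2.56, SE 1.04, limma adjusted p = 0.922 for withdrawal against enriched).

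Nr4a2 (chr2:57106830-57124003, minus strand), or Nurr1, had 79 rows, 73 of them under 20%. Its level was 4.05 to 9.67% in standard mice, 5.26 to 7.70% in enriched mice and 4.13 to 7.67% in withdrawal mice, with means of 6.40% ± 2.42, 6.36% ± 1.13 and 5.88% ± 1.34 (SD, n = 5). The difference of -0.0442 points between enriched and standard had the opposite sign on the log ratio scale (log2 ratio 0.014, SE 0.16, limma adjusted p = 0.997). It was -1.40 points without the 3 mice that lacked the most rows, where withdrawal minus standard was -1.11 instead of -0.521 and withdrawal minus enriched 0.289 instead of -0.477. A partly methylated stretch of 6 rows, all with a value in every mouse, lay inside the gene at chr2:57112525-57112563 and was chosen after its values were seen. It read 22.8, 23.0, 18.3, 28.5 and 33.7% in standard mice, 20.4, 20.1, 17.8, 12.3 and 17.0% in enriched mice and 22.9, 20.4, 18.3, 20.3 and 20.5% in withdrawal mice. The withdrawal mice were close together, and the standard group held both of the highest values. In the flank, the row chr2:57104186 read 15.4, 30 and 0% in 3 enriched mice and 0% in the 6 other mice with a value (log2 ratio 1.85, SE 0.75, limma adjusted p = 0.892 for enriched against standard).

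Arc and Homer1 act at the synapse: Arc drives the removal of AMPA receptors from the membrane, and the short activity-induced form of Homer1 loosens the scaffold that its long forms build. Arc (chr15:74669081-74672570) had 19 rows, all under 20%, 18 of them inside the gene at chr15:74671944-74672395. In the 14 mice with a value there the level was 3.05, 0.667, 2.38 and 1.73% in 4 standard mice, 0.463, 2.05, 1.89, 4.98 and 15.3% in enriched mice and 8.02, 1.86, 6.60, 5.07 and 4.41% in withdrawal mice. Enriched mouse 5 stood out, with 100% at the row chr15:74671944, named after its value was seen. The level over all 19 rows was 4.24% ± 4.18, 4.87% ± 5.62 and 5.67% ± 2.35 (SD, n = 5). The standard mean included 11.5% in mouse 1, which rested on the single row chr15:74673431, and without that mouse enriched exceeded standard by 2.45 points instead of 0.635 (log2 ratio 0.046, SE 0.36, limma adjusted p = 0.993 with all mice). Without enriched mouse 5 the difference was -1.65 points, and with plain means of the rows present it was -0.832 points. Without the 3 mice that lacked the most rows, withdrawal exceeded standard by 3.24 points instead of 1.43, with an unadjusted p under 0.05 (limma adjusted p = 0.914), and enriched by 2.49 instead of 0.793. The row of smallest p, chr15:74671987 on the plus strand, read 40, 0, 53.3 and 35.3% in the 4 withdrawal mice with a value and 0% in the 3 standard and 3 enriched mice with a value. Withdrawal exceeded standard there by 32.2 points (log2 ratio 3.01, SE 0.95, limma adjusted p = 0.911), with 3 of 4 withdrawal mice above all others and 5 of the 15 mice without a value.

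Homer1 (chr13:93303757-93405129, plus strand) had 24 rows in 4 stretches. The 12 rows at chr13:93303453-93303672, which include those in the printed bases, averaged 1.48% over all mice and 6 rows at chr13:93304369-93304436 averaged 1.90%. Inside the long gene, 3 rows at chr13:93314407-93314543 averaged 55.1% and 3 at chr13:93399561-93399744 42.9%. The start was thus nearly unmethylated and the inside of the gene partly methylated. The level was 1.89, 13.4, 7.67, 11.4 and 17.0% in standard mice, 17.2, 15, 14.3, 3.97 and 22.8% in enriched mice and 14.9, 14.8, 6.78, 14.5 and 13.9% in withdrawal mice. The lowest values were those of standard mouse 1, enriched mouse 4 and withdrawal mouse 3, and the groups overlapped. The means were 10.3% ± 5.78, 14.6% ± 6.83 and 13.0% ± 3.48 (SD, n = 5), and the enriched minus standard difference of 4.36 points (log2 ratio 0.44, SE 0.37, limma adjusted p = 0.918) became -1.29 without the 3 mice that lacked the most rows. Withdrawal minus standard then went from 2.71 to 0.613 and withdrawal minus enriched from -1.65 to 1.90. The row chr13:93314498 on the minus strand had the largest single difference of the named rows. It read 44.8, 39.3, 0 and 54.5% in 4 standard mice, 88.9, 87.1, 66.7, 38.5 and 100% in enriched mice and 64.3, 68, 50, 48.5 and 45.8% in withdrawal mice. The enriched mean was 41.6 points above the standard mean (log2 ratio 3.17, SE 1.16, limma adjusted p = 0.892), with 4 of 5 enriched mice above all 4 standard mice.

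**Figure D4:**
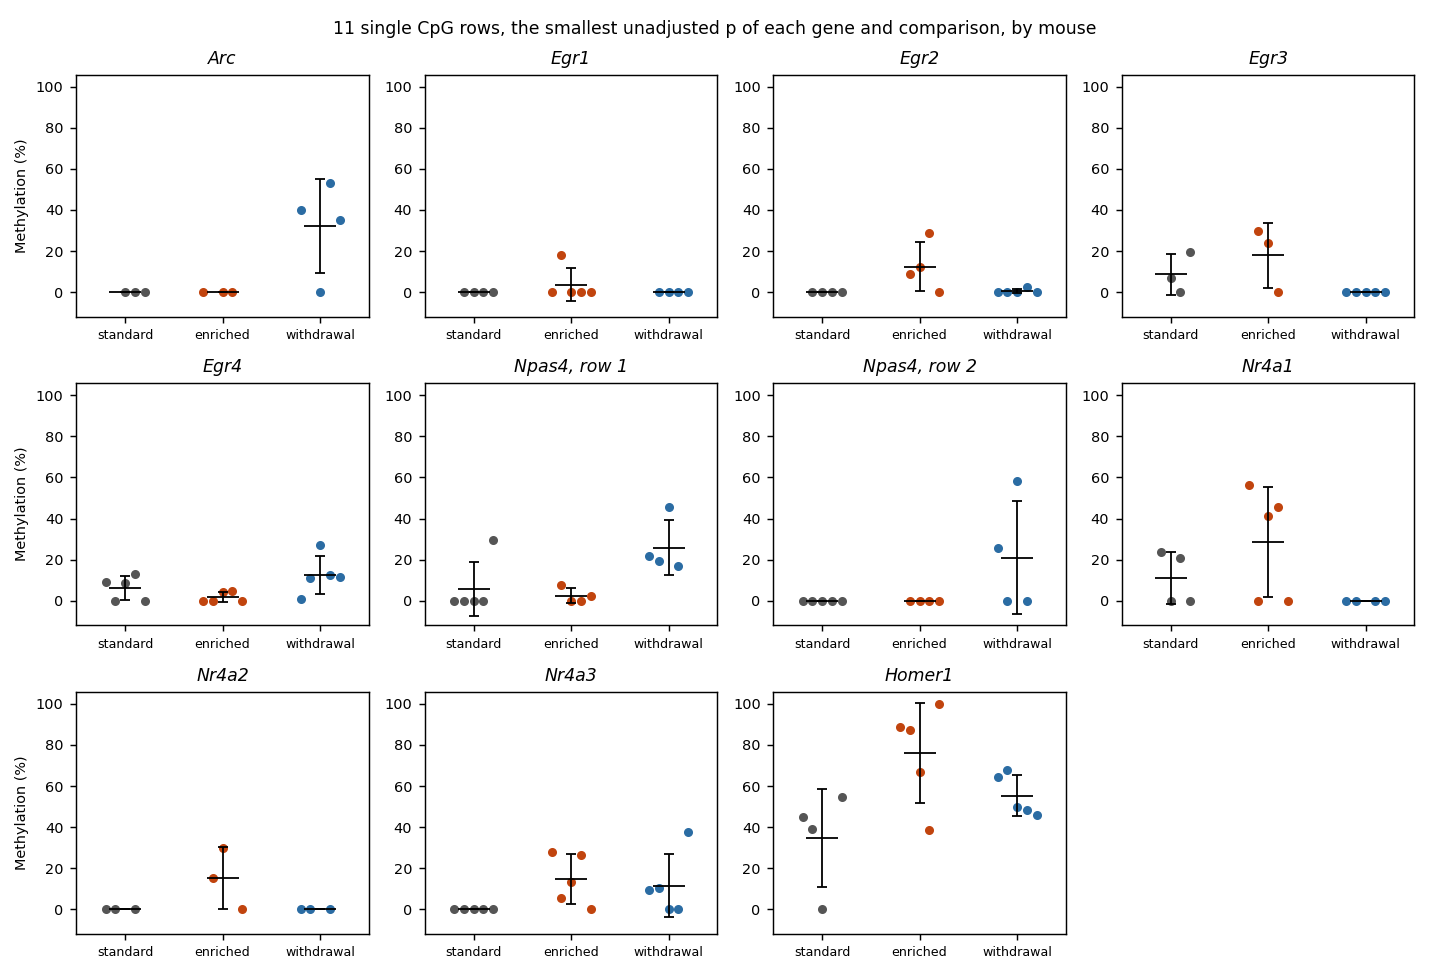
Methylation in percent at the 11 single CpG rows named in the text, 1 point per mouse with a value, with the mean and SD of each group. Most points lie at or near 0, and the mice that read higher are 1 to 5 of a group, as in the 3 withdrawal mice at Arc and the 4 withdrawal mice at the first Npas4 row.

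The other genes of the pathway, from lists chosen by function, gave no call either. Of 40 further activity-induced genes, such as Fos, Bdnf and Gadd45b, all with a level, 0 passed the limma test in any comparison. At an unadjusted p under 0.05, 0 were higher and 2 lower in enriched than in standard mice, 2 higher and 1 lower in withdrawal than in standard mice, and 1 higher and 0 lower in withdrawal than in enriched mice. Over all genes and both directions, the shares at that p were 5.81%, 4.41% and 4.09% in the same order. The mean level of these 40 genes was 8.58% ± 0.683, 8.32% ± 0.548 and 8.47% ± 0.456 (SD, n = 5) in the standard, enriched and withdrawal groups. Btg2, an antiproliferative gene induced by activity, had 31 rows and was highest in withdrawal, where it ranged from 2.0 to 5.67%, against 0 to 1.78% in standard and 0 to 2.44% in enriched mice. Withdrawal exceeded enriched with a log2 ratio of 0.56 (SE 0.16, limma adjusted p = 1), and the highest enriched mouse was above the lowest withdrawal mouse. Of 23 upstream regulators and partners, such as Creb1, Srf and Nab2, 21 had a level and 0 were called. At an unadjusted p under 0.05, 1 was lower in enriched than in standard mice, 1 was higher and 1 lower in withdrawal than in standard mice, and 0 passed that p between withdrawal and enriched mice, against the same shares over all genes. The gene with the smallest p among them was Arnt2, whose protein pairs with NPAS4. It was at 76.9% ± 5.93 in standard mice, 81.2% ± 3.14 in enriched mice and 85.8% ± 3.30 in withdrawal mice (SD, n = 5; log2 ratio 0.69, SE 0.22, limma adjusted p = 0.984 for withdrawal against standard). Of 17 synaptic partners of Homer1 and Arc, such as Shank3 and Grm5, 0 were called and 0 had an unadjusted p under 0.05 in any comparison, against 5.81%, 4.41% and 4.09% of all genes.

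Methylation at genes that mark cell types gave no call in any list, and its part in the results above was not tested. At an unadjusted p under 0.05, withdrawal against standard had 1 of 5 neuronal markers higher and 1 of 3 microglial markers lower. It also had 1 of 2 choroid plexus and ependyma markers higher, against 4.41% of all genes. In enriched minus standard and in withdrawal minus enriched 0 markers had such a p, against 5.81% and 4.09%. Mean methylation levels in the standard, enriched and withdrawal groups were 21.0, 21.3 and 21.7% for 5 of 6 neuronal markers, 9.89, 10.3 and 10.5% for 3 of 3 markers of inhibitory neurons, 38.5, 39.1 and 40.4% for 6 of 6 of the oligodendrocyte line, 27.5, 25.1 and 28.3% for 4 of 5 of astrocytes, 89.2, 88.2 and 87.6% for 3 of 4 of microglia, 24.1, 24.8 and 23.4% for 3 of 3 of vessels and 18.9, 19.2 and 22.6% for 2 of 2 of the choroid plexus and ependyma. The ranges of each list over mice overlapped between all groups. Methylation does not measure expression, so the labelled tissue was not checked by marker expression.

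The plot of differences by setting shows how far each gene's difference moved with the processing. Egr1, Egr2, Egr3, Npas4 and Nr4a3 were higher in enriched than in standard mice, and lower in withdrawal than in enriched mice, in every fit that gave them a value. The offset, the percent scale, the variance trend and the block leave a difference in points as it is, so only the other fits bear on its direction, and 0 of all fits called any of them. The enriched minus standard difference changed sign in at least 1 fit at Arc, Egr4, Nr4a1, Nr4a2 and Homer1. The smallest adjusted p of any fit for a gene or a named row was 0.432 by limma.

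**Figure D5:**
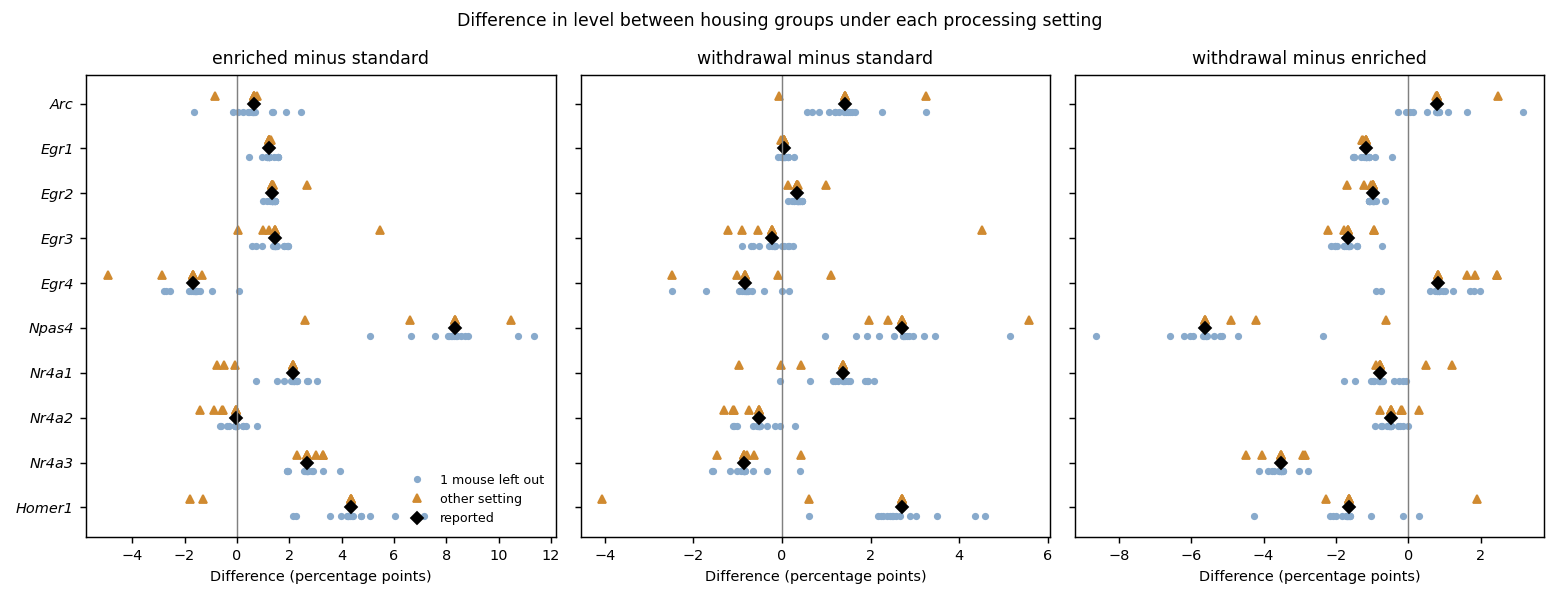
Difference between group means in percentage points for each gene, in 3 panels for the 3 comparisons. Black diamonds are the reported values, blue points the fits with 1 mouse left out and orange triangles the other settings. The Egr2 and Nr4a3 points stay above 0 for enriched minus standard, and the Nr4a1 and Homer1 points fall on both sides of it.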

How the data were processed

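Reduced representation bisulfite sequencing was done on dentate gyrus DNA of 15 libraries, 5 per housing group. Per the submitters' processing notes, Trim Galore 0.4.0, cutadapt 1.8.1, Bismark 0.16.1, methylKit 1.5.2 and build mm10 were used; their settings are not given in the sources used here. The authors deposited a table of percent methylation per cytosine and strand. It runs through the chromosomes once and then again, and the first run was taken as CpG: of 40643 of its rows inside RefSeq promoter windows, 100% lay on a CG, against 0% of 118360 rows of the second run. Read counts are not in the table, so coverage and its filter are unknown and no interval or count test could be given.

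CpG rows within 5 kb of each RefSeq gene were joined by coordinate. A gene's level per mouse came from a least-squares fit of row plus mouse effects over at least 3 rows, with results outside 0 to 100 set to the limit. Levels at gene starts used rows within 1 kb of the 5′ end of genes whose strand is known. Rows were tested with values in at least 3 mice per group and a range of at least 5 points. All were fitted over the whole table with limma 3.58.1 (R 4.3.3) on log2((percent + 5)/(105 - percent)), with 1 mean per group, shared variance, a variance trend and Benjamini-Hochberg adjustment at 0.05. Other steps used Python 3.11.15, pandas 2.3.3, numpy 2.4.6 and matplotlib 3.10.9. The fits were tested on simulated data, where the row test missed most of the changes at each size tried. The gene test recovered 153 of 200 changes of 10 points at base levels of 0 to 20%, and 78 of 200 at 20 to 40%. Changes under 10 points were not tried, and the differences between groups at the 10 genes were all smaller than that.

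The 10 genes and all lists were chosen with earlier results of these data known. The rows named are the 3 of smallest unadjusted p in each comparison and the row of smallest p of each gene; of the other lists, genes with an unadjusted p under 0.01 are named. Alternatives were an offset of 1 point, the percent scale, rows complete in all mice, no minimum range, no variance trend, the replicate number as a block, plain means, a 2 kb flank and each mouse left out. Leaving out the 3 mice with the most missing rows, and using any listed start, were added after seeing the data. Gene levels were estimated anew when 1 mouse was left out, but not when the 3 mice were left out. Exons and introns were not used here.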

Additional observations from a re-analysis of the deposited data

Results flagged for a closer look

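In 9 of 56 groups of 4 or 5 mice examined, the highest or lowest mouse stood apart from the rest by Dixon's criterion, which chance meets in about 1 in 20 groups of normally spread values. That rate is no comparison here, because in 4 of the 9 the rest of the group read 0%, which meets the criterion by itself, and the rows were chosen by small p. Of these, 5 were gene levels and 4 were single CpG rows. Standard mouse 1 read 11.5% at Arc, where the other standard mice ranged from 1.09 to 3.50%, and 20.4% at Nr4a1, where they ranged from 26.5 to 28.3%. It lacked 54.3% of the rows of the 10 genes, and its part in these values was not tested beyond leaving it out. Enriched mouse 4 read 3.60% at Egr2, with the other enriched mice between 1.75 and 1.83%. Without it, enriched exceeded standard at Egr2 by 0.982 points (limma adjusted p = 0.881). Withdrawal mouse 3 read 6.78% at Homer1, with the others between 13.9 and 14.9%. Standard mouse 2 read 0.741% at Egr1, where the other 3 standard mice with a value read 0%.

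At single rows, enriched mouse 2 read 18.2% at the Egr1 row chr18:34861618 and withdrawal mouse 4 read 2.27% at the Egr2 row chr10:67537556, where the rest of each group read 0%. Standard mouse 5 read 29.4% at the Npas4 row chr19:4989785, with the other standard mice at 0%. Withdrawal mouse 5 read 37.7% at the Nr4a3 row chr4:48045628, with the other withdrawal mice at 0 to 10.3%.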

How the results depend on the processing

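The count of called genes, starts and rows among the 10 genes was 0 in each comparison under all 226 alternative values of the 10 counts. Over the whole table, alternatives called at most 1 row, 0 gene levels and 2 starts. Among the 63 differences of genes and named rows, 44 alternative values reversed and 0 came to pass the test. The offset, percent scale, minimum range, variance trend and block cannot move a difference in points, and 4 of the 63 were exactly 0 and have no direction. Enriched exceeded standard at 7 to 10 of the 10 genes with 1 mouse left out, and withdrawal exceeded enriched at 1 to 3. With plain means, reversed differences were -0.832 at Arc, -0.775 at Nr4a1 and -1.78 at Homer1 (enriched minus standard), -0.0658 at Arc, -0.0313 at Egr1 and -4.06 at Homer1 (withdrawal minus standard), 1.21 at Nr4a1 (withdrawal minus enriched) points. With rows complete in all mice, reversed differences were -0.0672 at Nr4a1 (enriched minus standard), 4.52 at Egr3 and -0.969 at Nr4a1 (withdrawal minus standard) points. With a 2 kb flank, reversed differences were 1.10 at Egr4 (withdrawal minus standard) points. Without the 3 mice with the most missing rows, reversed differences were -0.512 at Nr4a1 and -1.29 at Homer1 (enriched minus standard), -0.0227 at Nr4a1 and 0.433 at Nr4a3 (withdrawal minus standard), 0.489 at Nr4a1, 0.289 at Nr4a2 and 1.90 at Homer1 (withdrawal minus enriched) points. With 1 mouse left out at a time, differences that changed sign ranged for enriched minus standard from -1.65 to 2.45 at Arc, -2.77 to 0.0742 at Egr4, -0.636 to 0.780 at Nr4a2 and -5.14 to 2.48 at the Npas4 row 4989785. With 1 mouse left out at a time, differences that changed sign ranged for withdrawal minus standard from -0.0874 to 0.270 at Egr1, -0.892 to 0.255 at Egr3, -2.49 to 0.148 at Egr4, -0.0354 to 2.07 at Nr4a1, -1.11 to 0.287 at Nr4a2 and -1.58 to 0.412 at Nr4a3. With 1 mouse left out at a time, differences that changed sign ranged for withdrawal minus enriched from -0.296 to 3.17 at Arc, -0.880 to 1.97 at Egr4, -4.26 to 0.297 at Homer1 and -9.74 to 0.140 at the Nr4a3 row 48045628. The cause was not tested. Correlation showed no pairing by replicate number: same-numbered mice correlated at r = -0.0177 to 0.0192 over 100562 rows. Of these pairs 0 of 15 exceeded 0.1, and 3 of 15 mice correlated best with their own number. Mice of different numbers in different groups correlated at r = -0.0227 to 0.0266. Whether same-numbered mice shared a cage, litter or batch was not tested. With the number as a block, the count of calls stayed at 0, and enriched exceeded standard at Egr2 by 1.33 points (limma adjusted p = 0.877). Coverage is not in the table, so missing rows are the only sign of depth. RRBS left Egr1 with 5 rows and Egr4 with none inside the gene. Among complete rows, 6 of the 10 genes kept a level.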

Other observations

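Cytosines outside CpG were also measured around the 10 genes, in 1410 rows, and were close to unmethylated. Their mean was 0.617% ± 0.0407 in standard mice, 0.680% ± 0.141 in enriched mice and 0.599% ± 0.158 in withdrawal mice (SD, n = 5), with overlapping groups. Only 3 of these rows averaged over 10%, and the highest, 30.3%, lay in the flank of Egr3 at chr14:70073946. By gene the group means ran from 0% at Egr1 in the enriched mice to 1.41% at Egr3 in the standard mice.

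Both strands of 33 CpGs of the 10 genes were measured, giving 374 comparisons of strands within a mouse. In 80.7% of them both strands read 0%, against 50.8% over all CpG rows. Where they did not, the strands differed by a median of 10.9 points, against 11.1. Rows with a median of 0% over the mice still held single values of 30% or more, in 2.02% of values at the 10 genes and 2.13% over all CpG rows. The share was highest at Npas4, 7.46%, and Arc, 5.21%, and lowest at Egr1, with 0 of 62 values. All 15 mice had at least 1 such value.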
